A study of Mus musculus with 16 samples.

Results

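Gene expression was compared between ventricles of 4 lactating and 4 nulliparous wild-type mice, which are 8 of the 16 arrays of the series and were chosen by their titles. All mice were female. The wild-type mice carried both copies of Npr1 (Npr1+/+), which encodes the receptor of the natriuretic peptides. The lactating mice were 2 weeks into lactation, and the nulliparous mice had not had a litter. The other 8 arrays are from 4 nulliparous and 4 lactating Npr1-/- mice. They enter the estimate of the spread between mice and a side by side account near the end. They also count in the choice of each gene's probe and in the filter, through which alone they let in 235 genes. The study's design text gives 4 independent mice, read here as 1 mouse for each array, so n = 4 in each group. Strain, age, litter size and the hour of collection are not given in the sources used here. Of 21154 genes with a named probe, 14051 were tested. A tested gene had to be flagged as well above background by the scanner software on every array of some group, knockouts included.

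In pregnancy and lactation the heart pumps more blood, and its ventricles enlarge in a way that is largely reversible. Enlargement of the ventricle can draw on new protein, mitochondria, vessels and matrix, and in disease it comes with a return of genes of the fetal heart. Stretched cardiomyocytes secrete natriuretic peptides, which act on the receptor Npr1 to lower blood volume and to restrain growth. Lactation also changes circulating hormones, feeding and daily rhythm, all of which reach the heart. The comparison asks which transcripts differ in the normal lactating ventricle.

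A level below is the log2 signal of a gene's brightest probe minus the array's 75th percentile. A difference is the lactating minus the nulliparous mean, on the same log2 scale, with its standard error (SE) after the sign ±. Levels of a gene are listed for replicates 1 to 4, nulliparous first and lactating second. A gene rose or fell, or was called, at an adjusted p under 0.05 by limma, a linear model fitted to all genes with Benjamini-Hochberg adjustment. All 25 markers of ventricular cardiomyocytes passed the background flag on each of the 8 arrays. Of the genes with a probe, 3 of 12 mammary gland markers and 1 of 10 lung markers were measured. Arrays of a group correlated at 0.9824 to 0.9948 across genes when nulliparous and at 0.9882 to 0.9922 when lactating, against 0.9582 to 0.9721 between groups. Each slide held 2 mice of each group, and a group kept 1 position on both slides, so position and group cannot be told apart.

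Lactation differed from the nulliparous state over a large share of the measured genes, mostly by small steps. Of the 14051 genes, 7066 were called (50.3%). Of these, 4464 rose (31.8% of genes tested) and 2602 fell (18.5%), so that 63.2% of the calls were rises. The median fold was 1.55 among the rises and 1.51 among the falls, and 78.8% of calls were under 2-fold. At least 2-fold changes numbered 996 rises and 503 falls, and 16 rises and 15 falls reached 8-fold. A test of the size itself (limma treat) placed 482 genes past 1.5-fold, 325 up and 157 down. That number rests on each array. It was 235, 231, 277 and 261 without nulliparous replicates 1 to 4, and 260, 241 and 181 without lactating replicates 1 to 3. It was 1237 when nulliparous knockout replicate 4, which enters no wild-type mean, was left out of the fit. The 4 lactating arrays lay wholly above the nulliparous arrays for 4257 genes and wholly below for 2371, together 47.2% of genes tested. The filter let in 1002 genes that were above background on all lactating but not all nulliparous arrays, and 84 the other way round. Such genes passed through the group where they are high. Over the 12730 genes above background on all 8 arrays, 32.1% rose and 19.5% fell, and lists with many genes of the first kind are counted over these below.

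**Figure D1:**
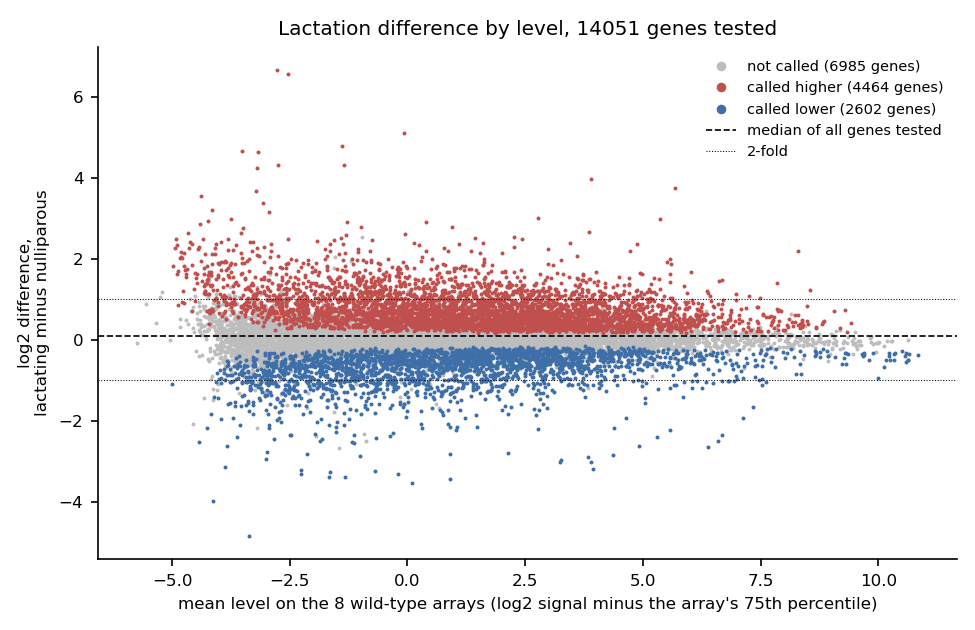
Each point is 1 of the 14051 genes tested, with its mean level on the 8 wild-type arrays on the x axis (scaled log2 signal) and its log2 difference, lactating minus nulliparous, on the y axis. Red points are the 4464 genes called higher and blue points the 2602 called lower. Calls occur at all levels, and the widest differences are at low levels.

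The response was spread over the genome and over expression levels. Between 47.4% and 52.2% of the genes tested on each chromosome were called. When genes were ranked by level in 5 equal groups, 21.2% of the dimmest rose and 35.8% of the brightest. Differences of at least 2-fold were most frequent among the dimmest genes, with 458 in the dimmest group and 178 in the brightest. Background correction by normexp, which pulls dim signals together, left 743 genes at 2-fold in place of 1499. It kept the sign of 98.2% of the calls. The balance among the dimmest group turned round, however. There 5.23% rose and 35.8% fell with normexp, against 21.2% and 16.2% without it, and the median went from 0.08 to -0.19. In the brightest group 43.1% rose and 13.1% fell, against 35.8% and 17.6%. Among 1712 called genes with a second measured probe, that probe moved the same way for 1223 (71.4%).

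The balance of rises and falls depended on the filter and on what was held constant between arrays. With no filter on dim genes 4303 rose and 5067 fell, so that 45.9% of the calls were rises in place of 63.2%. Before scaling, the 75th percentile stood at 198 to 221 signal units in nulliparous mice and at 278 to 309 in lactating mice. The added control RNA went the other way, with a mean log2 signal of 12.75 to 12.83 on nulliparous and 12.44 to 12.59 on lactating arrays. Scaling on these control probes moved the median difference of all genes from 0.10 to 0.86, with 10864 rises and 255 falls. Centring on the array median moved it to 0.28, with 6052 rises and 1487 falls. That shift is the same for each gene, so it moves small falls above 0. Differences below are therefore best read against the median of all genes, and "fell" means relative to the 75th percentile of the array.

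**Figure D2:**
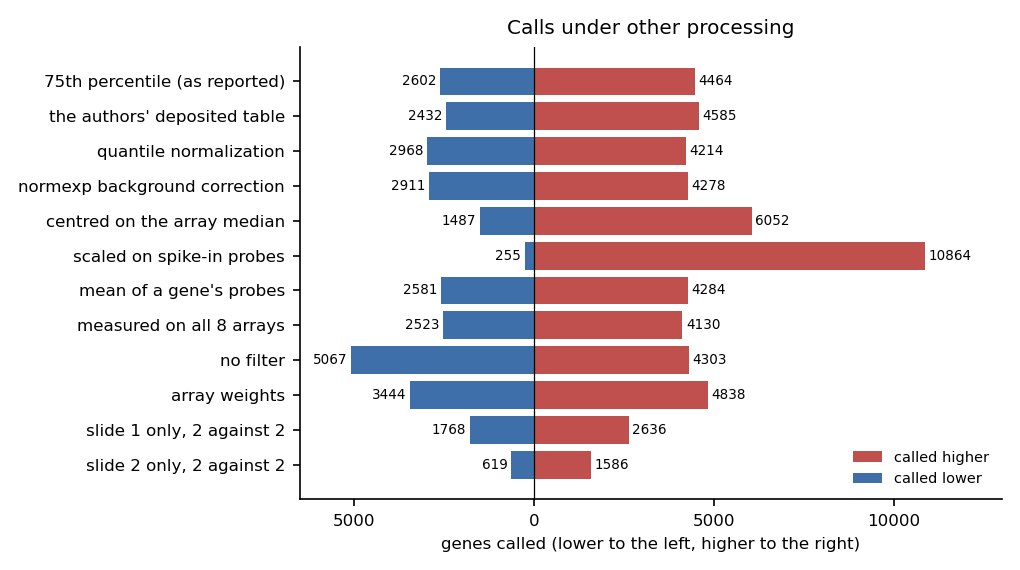
Bars give the number of genes called higher (red, to the right) and lower (blue, to the left) under each way of processing the same arrays. Scaling on spike-in probes gives 10864 higher and 255 lower, against 4464 and 2602 as reported, while the authors' deposited table gives 4585 and 2432.

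On each slide taken alone, with knockouts in the fit, 5562 genes were called on slide 1 and 88 on slide 2. Fits of the wild-type arrays alone, chosen after seeing the data, called more on slide 2. From the 4 wild-type arrays of slide 1, 4404 genes were called, and 4282 of them (97.2%) differed in the same direction on slide 2. Of the 1384 that changed at least 2-fold on slide 1, 1251 changed at least 1.5-fold the same way on slide 2. Slide 2 called 2205 genes, of which 2190 (99.3%) had the same sign on slide 1.

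Stress and fetal genes of the cardiomyocyte mostly rose. Of 26 measured genes, 18 rose and 1 fell, and the median difference was 0.90 against 0.10 over all genes. The group holds genes that cardiomyocytes switch on under stretch or load. Nppb, which encodes B-type natriuretic peptide, stood at 4.12, 4.76, 2.61 and 3.79 on nulliparous replicates 1 to 4 and at 7.28, 7.78, 8.01 and 7.17 on the lactating arrays. All lactating mice were above all nulliparous mice, and nulliparous replicate 3 was the lowest. Acta1, the skeletal muscle actin of the fetal heart, stood at 3.77, 4.04, 3.72 and 3.95 against 5.73, 7.57, 6.83 and 7.3. The nulliparous arrays were tightly grouped, and lactating replicate 1 rose least. The changes amounted to 13.3-fold for Nppb (3.74 ± 0.39, adjusted p = 4.67e-05) and 7.92-fold for Acta1 (2.99 ± 0.42, adjusted p = 0.00015).

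Both promoters are shown because these genes led the group and share a motif. The sequences are the 250 bases before the start of each gene, from RefSeq (build GRCm38.p6), 5′ to 3′ on the gene's strand: Nppb at chr4:147985650-147985899 on the plus strand and Acta1 at chr8:123894776-123895025 on the minus strand. Capitals mark the MCAT motif, CATTCC or its reverse complement, searched on both strands.
Nppb: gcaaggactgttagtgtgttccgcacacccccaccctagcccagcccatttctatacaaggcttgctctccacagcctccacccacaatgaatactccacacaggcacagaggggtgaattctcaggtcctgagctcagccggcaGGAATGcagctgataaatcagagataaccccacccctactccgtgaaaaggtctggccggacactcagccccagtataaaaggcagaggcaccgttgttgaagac
Acta1: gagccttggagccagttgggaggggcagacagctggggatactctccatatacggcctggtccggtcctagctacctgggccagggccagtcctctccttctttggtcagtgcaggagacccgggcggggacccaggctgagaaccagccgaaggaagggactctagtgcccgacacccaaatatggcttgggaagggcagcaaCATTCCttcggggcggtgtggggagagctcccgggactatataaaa
The motif was present in 9 of 23 promoters of this group (39.1%) and in 1475 of 11168 promoters of all genes tested (13.2%). A match describes the letters only.

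Other members of the group rose by smaller amounts. Rcan1, a calcineurin inhibitor that calcineurin itself induces, stood at 1.22, 1.11, 0.96 and 1.5 and then 2.57, 4.4, 4.22 and 3.54 and was picked out after its values were seen. Its change of 2.48 ± 0.34 (adjusted p = 0.000122) left the groups well apart, with lactating replicate 1 lowest again. Ccn2, a matricellular growth factor, rose by 1.91 ± 0.2, and Gdf15, a secreted stress hormone, by 1.62 ± 0.34 (adjusted p = 4.84e-05 and 0.00141). Des, the intermediate filament of muscle, rose by 1.13 ± 0.18 (adjusted p = 0.000252). Nppa, the atrial natriuretic peptide, stood at 8.46, 7.8, 7.9 and 7.56 when nulliparous and at 9.56, 9.39, 8.66 and 9.01 in lactation, a change of 1.22 ± 0.34 (adjusted p = 0.00841).

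Markers of atrial muscle other than Nppa did not follow it. Of 8 atrial markers above background on all 8 arrays 1, Nppa, rose and 2 fell, with a median of 0 (0.76 with spike-in scaling). Another 2 passed the filter through the nulliparous arrays, where they are high. With these included, 3 of 10 fell and the median was -0.30 (0.46 with spike-in scaling). Those that fell were Myl4, Myl7 and the transcription factor Tbx5 (-0.54, adjusted p = 0.0209). Myl4, the atrial light chain, fell by 1.26 ± 0.42 (adjusted p = 0.0218, but -1.11 and 0.0626 without nulliparous replicate 2, and -0.50 and 0.196 with spike-in scaling). Myl7, another atrial light chain, was chosen after its values were seen and stood at -2.29, -0.99, -1.79 and -1.07 and then -4.74, -5.45, -4.4 and -3.36. Its difference of -2.95 ± 1.13 had an adjusted p of 0.0418, which lay between 0.0513 and 0.0997 without any 1 of the arrays other than lactating replicate 4. On lactating arrays it was well above background on 2 of 4, and normexp gave -1.16. How much atrial muscle each ventricle sample held was not tested, and in bulk tissue fewer cells of a type and less RNA per cell cannot be told apart.

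**Figure D3:**
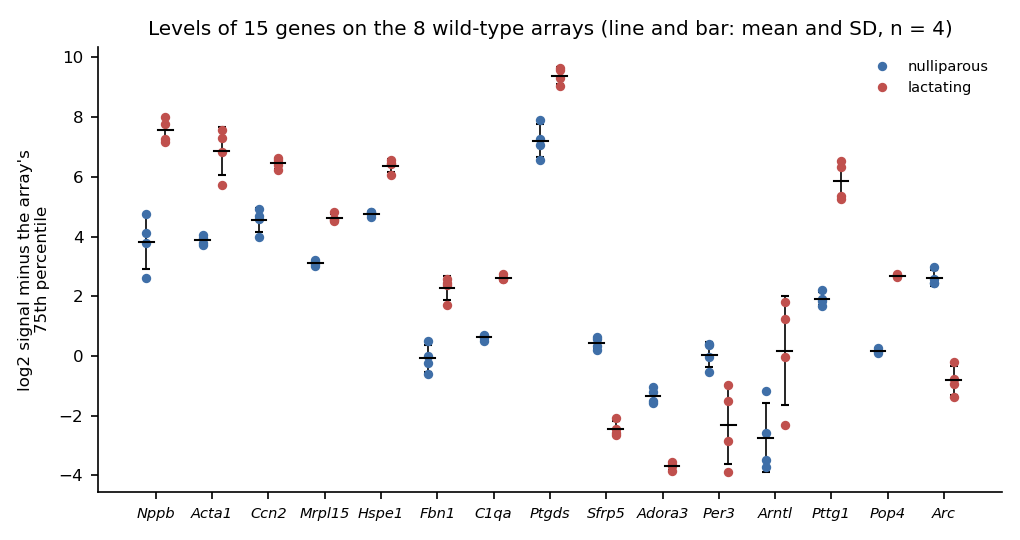
Points are the levels of single genes on each of the 4 nulliparous (blue) and 4 lactating (red) wild-type arrays, on the scaled log2 axis, with lines for the mean and bars for the SD of each group. For Nppb the nulliparous arrays lie between 2.61 and 4.76 and the lactating arrays between 7.17 and 8.01.

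Genes of the contractile apparatus moved in both directions, in shares near those of all genes. Of 38 sarcomere and Z-disc genes 11 rose (28.9%, against 31.8% of all genes) and 9 fell (23.7%, against 18.5%). Their median was 0.01, against 0.10 over all genes. The balance depended on the scaling, with 15 higher and 4 lower after median centring and 30 and 1 with spike-in scaling. Capza2, which caps actin filaments, rose by 1.48 ± 0.3 (adjusted p = 0.00129). Nebl, the Z-disc protein nebulette, fell by 1.09 ± 0.16 (adjusted p = 0.000156), and Tcap, which anchors titin at the Z-disc, fell by 0.94 ± 0.26 (adjusted p = 0.0086). Lactating replicate 3 lay lowest for Tcap, and without it the difference was -0.61 (adjusted p = 0.0119). With spike-in scaling neither Nebl (-0.33, 0.0516) nor Tcap (-0.18, 0.456) was called. Myh6, the main myosin heavy chain of the adult mouse ventricle, stood at 10.79, 10.92, 10.58 and 10.71 and then 10.25, 10.59, 10.18 and 10.43. Its groups overlapped by 0.01, and the difference was -0.39 ± 0.13 (adjusted p = 0.02). The Myh6 call ended without nulliparous replicate 2 (-0.33, adjusted p = 0.0631), lactating replicate 1 (-0.35, 0.0542) or lactating replicate 3 (-0.33, 0.0643), with quantile normalization (-0.02, 0.853) and with median centring (-0.20, 0.13). Spike-in scaling turned Myh6 to 0.37. Myh7, the fetal myosin heavy chain, differed by -0.47 ± 0.63 and was not called (adjusted p = 0.563; 0.29 with spike-in scaling).

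Calcium handling genes as a list lay near all genes, with a median of 0.14 against 0.10. Of 31 tested, 13 rose (41.9%, against 31.8% of all genes) and 6 fell (19.4%, against 18.5%). Pln, which restrains the calcium pump of the sarcoplasmic reticulum, stood at 5.98, 6.04, 5.7 and 5.8 and then 7.56, 7.27, 7.37 and 7.13, a rise of 1.45 ± 0.26 (adjusted p = 0.000599). Every lactating array was above every nulliparous array. Sri, a calcium sensor at the release channel, rose by 1.39 ± 0.14 (adjusted p = 4.11e-05), and Ryr2, the release channel, by 0.8 ± 0.18 (adjusted p = 0.00239). Atp2a2, the pump itself, rose by 0.4 ± 0.12 (adjusted p = 0.0158), which ended with the mean of its probes (0.09, 0.36) and with quantile normalization (0.33, 0.0614). Itpr2, a receptor of inositol trisphosphate, fell by 0.94 ± 0.19 (adjusted p = 0.00121; -0.18 and 0.442 with spike-in scaling).

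Among 34 ion channel, pump and gap junction genes 6 rose and 10 fell, with a median of -0.08 (0.68 with spike-in scaling). Kcnip2, a subunit of the channels that carry the transient outward potassium current, stood at -0.1, -0.26, 0.03 and -0.15 against 1.83, 1.42, 2.05 and 1.58, a rise of 1.84 ± 0.26 (adjusted p = 0.000133). Kcnj2, the inward rectifier that holds the resting potential, stood at -0.81, -1.24, -1.35 and -1.07 against -2.45, -2.24, -2.69 and -2.78, a fall of 1.42 ± 0.16 (adjusted p = 6.36e-05; -0.87 with normexp). The groups were apart for both genes, in opposite directions.

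Of 26 adrenergic and cAMP genes above background on all 8 arrays 6 rose (23.1%, against 32.1% of all such genes) and 5 fell (19.2%, against 19.5%). Another 4 passed the filter through the lactating arrays, where they are high. Prkar2a, a regulatory subunit of protein kinase A, rose by 1.83 ± 0.27 (adjusted p = 0.000194). Pde3a, a phosphodiesterase that degrades cAMP in the heart, stood at 1.82, 1.63, 1.33 and 1.86 and then 0.07, 0.36, 0.1 and 0.07, a fall of 1.51 ± 0.21 (adjusted p = 0.000126). In the natriuretic peptide and cGMP group 4 of 17 rose and 4 fell. Corin, the protease that activates the natriuretic peptide precursors, fell by 0.87 ± 0.2 (adjusted p = 0.00237) while Nppa and Nppb rose. The fall of Corin was not called with spike-in scaling (-0.10, adjusted p = 0.683).

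Mitochondrial genes did not move as a block. The mitochondrial ribosome, which makes the proteins encoded by mitochondrial DNA, rose most evenly, with 63 of 77 genes higher and 1 lower (median 0.56). Respiratory complex I had 23 of 45 higher and 3 lower (median 0.21), and complexes II to V had 16 of 48 higher and 3 lower (median 0.08). The median of the ribosomal list over arrays ran from -0.16 to 0.07 in nulliparous mice, relative to the nulliparous mean, and from 0.50 to 0.70 in lactating mice. Mrps18a, a small subunit protein, stood at 4.1, 4.26, 4.12 and 4.31 and then 5.19, 5.13, 5.19 and 5.2, and the lactating arrays spanned only 0.07. Its rise was 0.98 ± 0.09 (adjusted p = 1.74e-05). Mrpl15 of the large subunit rose by 1.51 ± 0.13 and Mrpl37 by 1.43 ± 0.21 (adjusted p = 1.74e-05 and 0.000174).

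The Mrps18a promoter is shown as one of 18 of 68 mitochondrial ribosome promoters (26.5%) with the letters CCGGAAG of an ETS factor site, against 1565 of 11168 (14%). It lies at chr17:46110754-46111003 on the plus strand, and capitals mark the match, searched on both strands.
Mrps18a: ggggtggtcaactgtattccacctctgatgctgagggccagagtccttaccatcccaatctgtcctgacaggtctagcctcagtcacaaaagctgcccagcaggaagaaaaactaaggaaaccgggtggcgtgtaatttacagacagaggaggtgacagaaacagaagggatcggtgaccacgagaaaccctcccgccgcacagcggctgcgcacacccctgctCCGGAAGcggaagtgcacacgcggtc
Whether a factor binds there was not measured.

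Single mitochondrial genes outside the ribosome are given next. They were picked as leading rises of separate lists, which also held falls. Tfam, which packages mitochondrial DNA, rose by 1.3 ± 0.22 (adjusted p = 0.000365). The mitochondrial tRNA synthetases Lars2 and Yars2 rose by 2.28 ± 0.35 and 1.66 ± 0.22 (adjusted p = 0.000213 and 0.000116). Of 34 synthetases of both compartments 14 rose and 3 fell, Dars and Kars among the latter. Ndufaf3, an assembly factor of respiratory complex I, rose by 1.19 ± 0.15 (adjusted p = 8.43e-05). Ndufb7 and Ndufa5 were among the genes of the complex I list that fell.

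Fuel use genes split by pathway. Pyruvate oxidation and citric acid cycle genes rose in 22 of 37 cases and fell in 4 (median 0.34), and glycolysis and glycogen genes rose in 19 of 39 and fell in 1 (median 0.31). Fatty acid uptake and oxidation genes were evenly split on this scale, with a median of 0.02. Of 39, 9 were higher (23.1%, against 31.8% of all genes) and 10 lower (25.6%, against 18.5%). That even split depended on the processing. Normexp gave 11 higher and 5 lower, median centring 14 and 2, and spike-in scaling 30 and 0. Dld, a subunit shared by the pyruvate and oxoglutarate dehydrogenases, rose by 1.56 ± 0.26 (adjusted p = 0.000358), and Suclg2, a subunit of succinyl-CoA ligase, by 1.56 ± 0.28 (adjusted p = 0.000579). Pdp2, a phosphatase that activates pyruvate dehydrogenase, fell by 1.12 ± 0.15 (adjusted p = 0.000102; -0.36 and 0.145 with spike-in scaling). Ppp1r3c, which directs a phosphatase to glycogen, rose by 1.33 ± 0.18, and Pygb, a glycogen phosphorylase, by 1.2 ± 0.31 (adjusted p = 0.000106 and 0.00507). The glucose transporter Slc2a1 rose by 0.46 ± 0.13 (adjusted p = 0.00973).

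Within fatty acid oxidation the members went separate ways. Slc25a20, which carries acylcarnitines into mitochondria, rose by 1.12 ± 0.21 (adjusted p = 0.000759), and Etfdh, which passes electrons on from the oxidation enzymes, by 0.91 ± 0.22 (adjusted p = 0.00369). Hadh, a dehydrogenase of the same spiral, fell by 0.73 ± 0.15 (adjusted p = 0.00102; 0.03 with spike-in scaling). Angptl4, an inhibitor of lipoprotein lipase that fatty acids induce through the PPAR receptors, stood at 3.72, 3.4, 3.94 and 3.55 and then 2.5, 2.26, 1.2 and 1.74, a fall of 1.73 ± 0.4 (adjusted p = 0.0028). All its lactating arrays lay below the nulliparous arrays, with lactating replicate 3 lowest.

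Ketone use was represented by Bdh1, the hydroxybutyrate dehydrogenase of mitochondria, which stood at 2.39, 2.41, 2.11 and 3.18 in nulliparous and at 5.55, 4.67, 5.0 and 5.48 in lactating mice. The groups were far apart, and the rise was 2.65 ± 0.54, or 6.29-fold (adjusted p = 0.00115). Pcca, a subunit of propionyl-CoA carboxylase, rose by 1.28 ± 0.22 (adjusted p = 0.000456). In the list of ketone and amino acid oxidation 10 of 30 rose and 3 fell. Lipid synthesis genes rose in 12 of 29 cases and fell in 2. The desaturases Scd1 and Scd2 rose by 1.25 ± 0.15 and 1.1 ± 0.12 (adjusted p = 8.08e-05 and 6.36e-05).

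The nuclear regulators of these pathways were mixed, with 7 of 32 higher and 7 lower. Ppargc1a, a coactivator that drives mitochondrial genes, stood at 5.31, 5.29, 5.32 and 4.78 and then 4.77, 4.35, 4.75 and 4.45, with each lactating array below each nulliparous array by a narrow margin. It fell by 0.6 ± 0.19 (adjusted p = 0.0155), but the mean of its probes was -0.12 (0.57), median centring gave -0.41 (0.0893) and spike-in scaling 0.16. Ppargc1b, its relative, fell by 1.46 ± 0.22 (adjusted p = 0.000199). Esrrg, a nuclear receptor partner of both, rose by 1.0 ± 0.17 (adjusted p = 0.000369). Antioxidant enzymes and metallothioneins rose in 23 of 39 cases and fell in 4. Gpx1, the main glutathione peroxidase, rose by 1.18 ± 0.11 (adjusted p = 2.06e-05).

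Heat shock chaperones rose, and most genes of the endoplasmic reticulum list were not called. In the heat shock list, which also holds the mitochondrial chaperonin, 21 of 32 rose and 1 fell (median 0.55), whereas in the list of the endoplasmic reticulum and its stress response 8 of 42 rose and 4 fell (median 0.03). Hspe1, the lid of the mitochondrial chaperonin, stood at 4.82, 4.76, 4.65 and 4.81 and then 6.57, 6.45, 6.05 and 6.43. The groups were far apart relative to their spread, and the rise was 1.61 ± 0.14 (adjusted p = 1.67e-05). Hspa4l, a nucleotide exchange factor of Hsp70, rose by 1.35 ± 0.12 (adjusted p = 1.59e-05).

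The Hspe1 promoter is shown because it holds 2 matches to the heat shock element TTCNNGAA, in capitals, which was searched on both strands. It lies at chr1:55087898-55088147 on the plus strand.
Hspe1: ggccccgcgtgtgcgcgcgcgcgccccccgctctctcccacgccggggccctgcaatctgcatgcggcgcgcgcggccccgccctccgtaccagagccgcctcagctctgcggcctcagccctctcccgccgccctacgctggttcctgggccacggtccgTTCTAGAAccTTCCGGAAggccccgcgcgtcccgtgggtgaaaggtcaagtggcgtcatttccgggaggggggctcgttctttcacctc
The element was present in 5 of 25 promoters of the list (20%) and in 796 of 11168 of all genes tested (7.13%).

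Genes that build and control translation rose in larger share than the proteins of the cytosolic ribosome. Translation factors rose in 37 of 73 cases and fell in 7 (median 0.31), and ribosome biogenesis genes rose in 22 of 46 and fell in 2 (median 0.28). Of 84 cytosolic ribosomal proteins 18 rose and 9 fell (median -0.01, and 0.75 with spike-in scaling). Eif3i, a subunit of initiation factor eIF3, stood at 0.82, 1.0, 1.11 and 0.79 and then 3.23, 2.88, 3.18 and 3.03, a rise of 2.15 ± 0.35 (adjusted p = 0.00029). Gnl3, or nucleostemin, and Nop14, a factor of the small ribosomal subunit, rose by 1.65 ± 0.26 and 1.13 ± 0.21 (adjusted p = 0.000254 and 0.00079). Eef1e1, a scaffold of the synthetase complex, rose by 1.78 ± 0.28 (adjusted p = 0.000243). Of the ribosomal proteins Rpl15 and Rps7 rose most, by 0.97 ± 0.14 and 0.77 ± 0.13 (adjusted p = 0.000132 and 0.000385). Snrpb, a core spliceosome protein, rose by 1.33 ± 0.25 (adjusted p = 0.000708), while splicing factors as a list had 22 of 78 higher and 16 lower.

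Proteasome genes lay close to all genes by their median, 0.16 against 0.10. Of 48, 21 rose (43.8%, against 31.8% of all genes) and 5 fell (10.4%, against 18.5%), led by Psmd8 and Psmb7 with 1.53 ± 0.2 and 1.45 ± 0.22 (adjusted p = 0.000109 and 0.00019). Of 34 atrophy and autophagy genes 18 rose and 4 fell. The muscle ubiquitin ligases of atrophy moved apart. Fbxo32, or atrogin-1, fell by 0.79 ± 0.19 (adjusted p = 0.00361; -0.03 and not called with spike-in scaling). Trim63, or MuRF1, rose by 0.54 ± 0.17 (adjusted p = 0.0137; 0.39 and 0.062 with quantile normalization). Bnip3, a receptor for the removal of mitochondria, rose by 0.82 ± 0.16 (adjusted p = 0.00101).

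**Figure D4:**
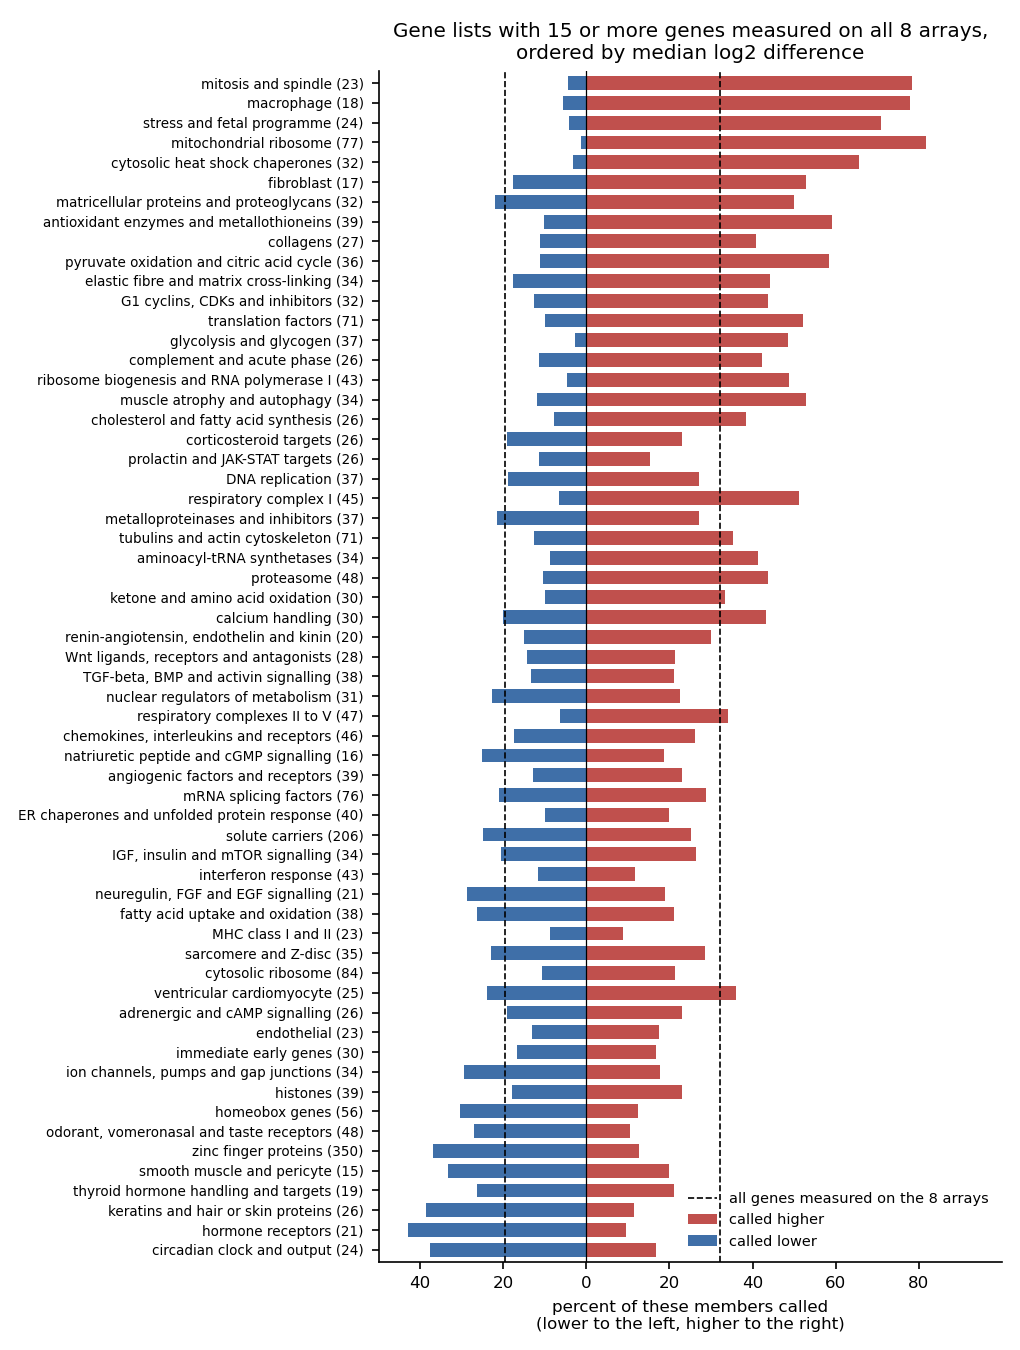
For each gene list with 15 or more genes above background on all 8 arrays (number in brackets), ordered by median difference, bars give the percentage of these genes called higher (red, to the right) and lower (blue, to the left). Dashed lines are all 12730 such genes, at 32.1% and 19.5%, and the mitochondrial ribosome, mitosis and macrophage lists have the largest shares of rises, at 81.8%, 78.3% and 77.8%.

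Genes of cell division were high in lactation by this scaling. Of 37 mitosis and spindle genes tested, 23 were above background on all 8 arrays. Of these 23, 18 rose, 13 of them by at least 2-fold, and 1 fell, with a median difference of 1.22, against 1.13 for the macrophage list, the next of the 71 lists. Another 11 passed the filter on all lactating but not all nulliparous arrays, and are left out of these counts. These genes are transcribed in dividing cells, and no list member tells which cells divided. Many were dim, and normexp lowered the median of the 23 to 0.57 with 14 rises, below the 1.06 of the macrophage list. The median of the 23 over arrays, relative to the nulliparous mean, was -0.06, 0.28, -0.24 and -0.12 in nulliparous and 0.43, 1.77, 1.14 and 1.29 in lactating mice, so lactating replicate 1 stood lowest. Prc1, which bundles the microtubules of the spindle midzone, rose by 2.16 ± 0.57, and Spc25 of the kinetochore by 1.97 ± 0.4 (adjusted p = 0.00586 and 0.00129; 1.26 and 1.15 with normexp). Mki67, a marker of cycling cells, stood at -0.42, 0.18, -0.83 and -0.51 against 0.06, 1.56, 1.09 and 1.37, and lactating replicate 1 lay inside the nulliparous range. Its rise of 1.42 ± 0.54 (adjusted p = 0.0418) was not called without nulliparous replicate 1, 3 or 4 or lactating replicate 2, 3 or 4 (adjusted p between 0.0739 and 0.104), or with the mean of its probes (0.0659).

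DNA replication and the controls of the G1 phase had lower medians, at 0.22 and 0.31. Replication genes rose in 13 of 41 cases (31.7%) and fell in 7 (17.1%), shares close to the 31.8% and 18.5% of all genes. Genes of the G1 phase rose in 16 of 36 cases (44.4%) and fell in 4 (11.1%). Mcm6, of the replicative helicase, rose by 1.38 ± 0.39 (adjusted p = 0.0093). Cdkn1a, the inhibitor p21, stood at -0.41, 0.01, 2.91 and 1.5 in nulliparous and at 3.1, 4.08, 4.11 and 2.86 in lactating mice. Nulliparous replicate 3 overlapped the lactating arrays, and the rise was 2.53 ± 0.59 (adjusted p = 0.00288). Cdkn1c, the inhibitor p57, fell by 1.1 ± 0.17, and cyclin D2, Ccnd2, rose by 0.72 ± 0.21 (adjusted p = 0.000205 and 0.0115). Myc, a growth transcription factor, rose by 1.89 ± 0.24 (adjusted p = 9.35e-05; 0.73 with normexp), and its probe was above background on 3 of 4 nulliparous arrays.

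Growth factor pathways showed no common direction. Insulin, IGF and mTOR genes had 9 of 34 higher and 7 lower, with Rheb, the activator of mTOR complex 1, up by 0.89 ± 0.17 and Igf2 down by 0.98 ± 0.18 (adjusted p = 0.000998 and 0.000702). In the neuregulin, FGF and EGF list 4 of the 21 genes above background on all 8 arrays rose and 6 fell. Their median was 0.01 (0.77 with spike-in scaling). Fgfr4, a receptor of fibroblast growth factors, stood at -0.13, -0.57, -0.63 and -0.23 and then -2.75, -2.49, -2.86 and -2.55. It fell by 2.28 ± 0.29 with the groups far apart (adjusted p = 9.69e-05; -1.46 with normexp). Fgf18, a ligand of the family, rose by 0.91 ± 0.24 (adjusted p = 0.0067). With spike-in scaling Cdkn1c and Igf2 were not called (-0.34 and -0.22).

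Matrix genes rose in larger part than they fell, as did all genes tested (31.8% and 18.5%). Of 29 collagens 12 rose (41.4%) and 3 fell (10.3%), with a median of 0.34. Of 37 elastic fibre and cross-linking genes 18 rose (48.6%) and 6 fell (16.2%), with a median of 0.32. Of 36 matricellular and proteoglycan genes 18 rose (50%) and 7 fell (19.4%), with a median of 0.37. Over the genes above background on all 8 arrays, the rises were 11 of 27, 15 of 34 and 16 of 32, and the falls 3, 6 and 7. Fibroblast markers rose in 9 of 17 cases (52.9%) and fell in 3 (17.6%). Fbn1, the main protein of microfibrils, stood at -0.01, -0.23, -0.59 and 0.51 and then 1.71, 2.58, 2.38 and 2.44, a rise of 2.36 ± 0.3 (adjusted p = 8.98e-05). Col4a1 and Col4a2, neighbouring genes for basement membrane collagen, rose by 1.3 ± 0.28 and 1.13 ± 0.23 (adjusted p = 0.00172 and 0.00134). Of the fibrillar collagens, Col1a1 rose by 0.94 ± 0.24 (adjusted p = 0.00492), whereas Col3a1 at 0.71 ± 0.36 was not called (adjusted p = 0.118). The Col3a1 difference was called with array weights, median centring or spike-in scaling (0.67, 0.89 and 1.47). Nulliparous replicate 3 was the lowest array for both, and without it Col3a1 was 0.40.

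Single matrix genes moved further or against the rest. Thbs1, the matricellular protein thrombospondin 1, rose by 2.35 ± 0.36 (adjusted p = 0.000234), and Plod1, which hydroxylates collagen lysines, by 1.51 ± 0.22 (adjusted p = 0.000192). Timp1, an inhibitor of metalloproteinases, and Mmp3, a metalloproteinase, rose by 1.27 ± 0.28 and 1.81 ± 0.48 (adjusted p = 0.00182 and 0.00649). Postn, of activated fibroblasts, rose by 0.88 ± 0.28 (adjusted p = 0.0168), which was not called without nulliparous replicate 3 (0.74, 0.0538) or lactating replicate 2 (0.76, 0.0519). Col15a1, a collagen of capillary basement membranes, fell by 1.8 ± 0.35 (adjusted p = 0.000968), but was not called with the mean of its probes (-0.50, 0.106). Normexp gave 1.37 for Thbs1 and 0.84 for Mmp3.

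Secreted antagonists of Wnt signalling moved both ways. Of 28 Wnt ligands, receptors and antagonists above background on all 8 arrays 6 rose and 4 fell. Frzb, a secreted Wnt antagonist, rose by 0.95 ± 0.15 (adjusted p = 0.000244; 0.35 with normexp), while Sfrp5 and Wif1 fell. Sfrp5, which binds Wnt ligands, stood at 0.34, 0.56, 0.63 and 0.2 in nulliparous and at -2.63, -2.58, -2.45 and -2.06 in lactating mice. It fell by 2.86 ± 0.29 with no overlap (adjusted p = 4.1e-05). Wif1, another secreted inhibitor, stood at 1.28, 1.29, 1.35 and 1.08 and then -0.27, -0.05, -0.07 and -0.28, a fall of 1.42 ± 0.39 (adjusted p = 0.0075; -0.66 and 0.101 with spike-in scaling). In the TGF-beta and BMP list 9 of 41 rose and 6 fell, with Bmp7 up by 1.67 ± 0.28 (adjusted p = 0.000357; 0.82 with normexp).

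Vessel genes changed little as a list. Of 42 angiogenic factors and receptors 9 rose and 5 fell (median 0.04), and of 23 endothelial markers 4 rose and 3 fell (median -0.03, and 0.73 with spike-in scaling). Apln, the peptide apelin, rose by 1.66 ± 0.5 (adjusted p = 0.0138), with nulliparous replicate 3 the lowest array at -1.34. Angpt1, a factor that stabilises vessels, fell by 1.17 ± 0.25 (adjusted p = 0.00149; -0.40 and 0.254 with spike-in scaling). Pecam1, an endothelial adhesion molecule, rose by 0.54 ± 0.14 (adjusted p = 0.00445), while Erg and Egfl7 were among the endothelial markers that fell.

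Markers of tissue macrophages rose. Of 22 macrophage markers tested 18 were above background on all 8 arrays, and 14 of these rose, 10 of them by at least 2-fold, and 1 fell, with a median of 1.13 (0.77 over the 22). The median of the 18 was -0.13 to 0.11 over nulliparous and 0.78 to 1.33 over lactating arrays. Lyz2, the lysozyme of macrophages, stood at -2.36, -2.24, -2.39 and -2.5 and then 0.18, 0.7, 0.53 and 0.2, a rise of 2.78 ± 0.38 (adjusted p = 0.000121; 1.82 with normexp). C1qa, of the first complement component, stood at 0.68, 0.61, 0.7 and 0.49 and then 2.57, 2.58, 2.61 and 2.73, a rise of 2.0 ± 0.29 (adjusted p = 0.000162). For both genes the spread within a group was small beside the gap between groups. Ccl6, a chemokine of macrophages, rose by 2.18 ± 0.32 (adjusted p = 0.000186).

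Interferon response genes rose in 6 of 45 cases and fell in 5, and MHC genes rose in 2 of 23 and fell in 2. The MHC genes that rose were B2m, the light chain of class I, by 0.84 ± 0.26 and H2-DMa, which loads class II, by 1.24 ± 0.29 (adjusted p = 0.0155 and 0.00319; 0.39 for H2-DMa with normexp). Gbp6, an interferon-induced GTPase, fell by 2.21 ± 0.32 (adjusted p = 0.000174), but was not called with the mean of its probes (-0.46, 0.0841). Of 7 T and B cell markers above background on all 8 arrays 1 rose (14.3%, against 32.1% of all such genes) and 0 fell. The other markers of the 10 tested passed the filter only through a knockout group. They include the 2 of the list that were called lower, so these falls were not well measured in wild-type mice. Chemokines, interleukins and their receptors rose in 12 of the 46 cases above background on all 8 arrays and fell in 8, with Lif, a cytokine of the interleukin 6 family, down by 2.46 ± 0.39 (adjusted p = 0.000274; -1.08 with normexp). Complement and acute phase genes rose in 13 of 28 cases and fell in 3. Lcn2, an iron-withholding protein of inflammation, rose by 1.78 ± 0.41 (adjusted p = 0.00262). Serpina3n, an acute phase inhibitor, stood at -5.67, -4.81, -3.26 and -5.87 and then 0.2, -0.24, -0.09 and -2.23, with a difference of 4.31 ± 0.55 (adjusted p = 9.35e-05; 1.59 with normexp). Its probe was above background on 1 of 4 nulliparous arrays, so the direction was measured but the size was not settled.

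**Figure D5:**
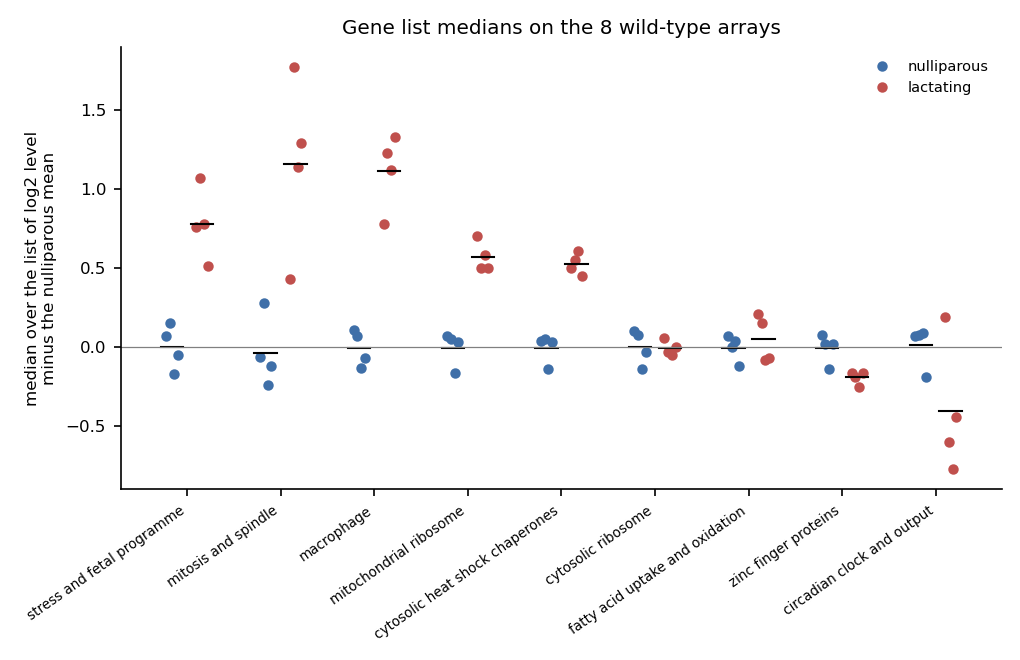
Each point is the median of 1 gene list on 1 wild-type array, as log2 level minus the nulliparous mean of each gene, over the genes above background on all 8 arrays, with bars for the mean of the 4 arrays of a group (blue nulliparous, red lactating). The macrophage, mitochondrial ribosome and heat shock lists have no overlap between groups, while lactating replicate 1 is the lowest lactating array for mitosis and the highest for the clock, at 0.19.

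Several other cell type lists are given as measured. Of 9 epicardial and mesothelial markers tested 4 were above background on all 8 arrays, and 2 of these rose (median of the 4, 0.39). The other 5, Msln and Krt19 among them, passed the filter through the lactating arrays, where they are high. Aldh1a2, which makes retinoic acid, rose by 1.57 ± 0.42 (adjusted p = 0.00649). Red cell genes rose in 7 of 10 cases (median 0.56). The globin genes Hbb-b2 and Hba-a1 rose by 1.24 ± 0.25 and 0.49 ± 0.12 (adjusted p = 0.00129 and 0.00468), and their near copies may share probe signal. Adipocyte markers rose in 3 of 11 cases (27.3%, against 31.8% of all genes) and fell in 1 (9.09%, against 18.5%). The marker that fell was Cidea. Retn, or resistin, rose by 2.45 ± 0.48 and Adipoq, or adiponectin, by 1.15 ± 0.34 (adjusted p = 0.000991 and 0.0115; 1.27 and 0.55 with normexp). Of 12 Schwann cell and neuron markers 2 rose and 4 fell, with a median of -0.21 (0.55 with spike-in scaling). Gfra3, a receptor of the neurotrophic factor artemin, fell by 1.68 ± 0.37 (adjusted p = 0.00199). Btn1a1, a milk fat protein of the mammary gland list, was the one member of 3 that was called, at 0.27 ± 0.08 (adjusted p = 0.0152). That call ended without lactating replicate 3 (0.22, 0.053) and with quantile normalization (0.15, 0.0954). What the makeup of the tissue pieces contributes to these differences was not tested.

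Clock genes differed in lactation and varied between the lactating mice. Of 25 clock and output genes 4 rose and 9 fell, 6 of them by at least 2-fold, with a median of -0.53 (0.23 with spike-in scaling). Arntl, or Bmal1, the positive arm of the clock, stood at -3.72, -3.48, -2.57 and -1.17 in nulliparous and at -2.31, 1.23, 1.82 and -0.02 in lactating mice. Per3, of the negative arm, stood at 0.4, 0.36, -0.03 and -0.53 against -0.96, -2.83, -3.89 and -1.52. Lactating replicate 1 was the nearest to the nulliparous arrays for both genes, inside their range for Arntl, and replicates 2 and 3 were the farthest. Arntl rose by 2.91 ± 0.81 (adjusted p = 0.00861; 1.82 with normexp) and Per3 fell by 2.35 ± 0.49 (adjusted p = 0.00142; -1.55 with normexp). The spread within the lactating group, 1.83 (SD) for Arntl and 1.32 for Per3, was among the widest of the genes named.

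The Per3 promoter is shown because it holds 2 copies of the D-box TTATGTAA, in capitals, the letters that the output factors Dbp, Hlf and Tef and their repressor Nfil3 can bind. It lies at chr4:151044666-151044915 on the minus strand.
Per3: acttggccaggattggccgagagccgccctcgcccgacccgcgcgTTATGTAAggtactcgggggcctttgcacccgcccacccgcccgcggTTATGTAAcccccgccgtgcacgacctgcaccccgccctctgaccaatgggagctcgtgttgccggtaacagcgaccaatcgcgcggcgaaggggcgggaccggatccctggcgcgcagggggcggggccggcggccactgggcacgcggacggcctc
The D-box, searched on both strands, was present in 1 of 19 clock promoters (5.26%) and in 74 of 11168 of all genes tested (0.663%). The E-box CACGTG was present in 5 of 19 (26.3%) and 1062 of 11168 (9.51%).

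The output factors Hlf and Dbp fell and their repressor Nfil3 rose. Hlf fell by 1.71 ± 0.35 and Nfil3 rose by 1.13 ± 0.25 (adjusted p = 0.00121 and 0.00183). Dbp stood at 6.86, 7.06, 5.91 and 6.43 against 6.67, 4.92, 3.26 and 5.76, so lactating replicate 1 lay within the nulliparous range. Its fall of 1.41 ± 0.53 (adjusted p = 0.0392) was not called without nulliparous replicate 1, 2 or 4 or lactating replicate 2 (adjusted p between 0.0595 and 0.0976), or without lactating replicate 3 (-0.78, 0.117). It was also lost with median centring (-1.23, 0.0641), spike-in scaling (-0.65, 0.225) and a fit of only the 8 wild-type arrays (0.102). Per1 and Per2 were not called at -0.54 ± 0.22 and -0.85 ± 0.44 (adjusted p = 0.0508 and 0.119). Without lactating replicate 1 both were called, at -0.80 (0.00173) and -1.33 (0.00741). Per1 was 0.22 with spike-in scaling, and was called with quantile normalization (-0.69, 0.015). The hour at which each mouse was sampled is not known here.

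Hormone receptors fell more often than they rose, relative to the array. Of 21 above background on all 8 arrays, 2 rose and 9 fell (42.9%, against 19.5% of all such genes), with a median of -0.31 (0.45 with spike-in scaling). Nr3c2, the mineralocorticoid receptor, stood at -0.69, -0.79, -1.38 and -0.94 and then -2.14, -2.87, -2.31 and -2.44, a fall of 1.49 ± 0.29 (adjusted p = 0.00098; -0.89 with normexp). Mas1, the receptor of angiotensin 1-7, stood at -0.39, -0.49, -0.81 and -0.07 and then -2.35, -2.39, -1.83 and -2.38, a fall of 1.8 ± 0.22 (adjusted p = 8.83e-05; -1.11 with normexp). Both receptors were lower on each lactating array.

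Of 26 prolactin and JAK-STAT genes 4 rose and 3 fell. Prlr, the prolactin receptor, stood at -0.81, -0.13, -0.96 and -0.55 against 0.87, -0.46, 0.88 and -0.46, with 2 lactating arrays inside the nulliparous range, and was not called at 0.82 ± 0.34 (adjusted p = 0.0555). It was called without nulliparous replicate 2 (0.98, 0.0393), lactating replicate 2 (1.04, 0.0234) or lactating replicate 4 (1.04, 0.0232). It was also called with median centring (0.0263), the mean of its probes (0.96, 0.0153), spike-in scaling (1.58, 0.00134) and a trended, robust variance (0.0485). Stat5a, which carries the prolactin signal to the nucleus, fell by 0.86 ± 0.13 (adjusted p = 0.000227; -0.10 and 0.603 with spike-in scaling). Socs6, of the suppressors of cytokine signalling, rose by 1.02 ± 0.13 (adjusted p = 9.35e-05; 0.31 with normexp).

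Corticosteroid and thyroid targets were mixed, with 6 of 26 and 5 of 21 higher and 5 lower in each. Mt2, a metallothionein that corticosteroids induce, stood at 3.53, 4.15, 6.84 and 3.82 against 6.99, 7.35, 5.22 and 6.72, with nulliparous replicate 3 far above the other nulliparous arrays and lactating replicate 3 lowest of its group. Its rise of 1.98 ± 0.6 (adjusted p = 0.0135) was not called in a fit of only the 8 wild-type arrays (0.0563). Ptgds, a prostaglandin D synthase, rose by 2.18 ± 0.27, and Thrsp, a lipogenic thyroid hormone target, by 1.31 ± 0.25 (adjusted p = 8.83e-05 and 0.000892). Of 33 immediate early genes 6 rose and 5 fell, with Atf3, a stress transcription factor, up by 2.19 ± 0.56 (adjusted p = 0.00531).

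Zinc finger proteins fell more often than they rose, relative to the array. Of 380 zinc finger proteins 50 rose (13.2%, against 31.8% of all genes) and 132 fell (34.7%, against 18.5%). Their median was -0.16 (0.59 with spike-in scaling, where the median of all genes was 0.86). Zinc finger proteins are the largest family of transcription factors, and most of these falls were small, with 24 at 2-fold or more. Zfp706 rose by 1.11 ± 0.16 (adjusted p = 0.00015), and Zfhx2 fell by 2.82 ± 0.39 (adjusted p = 0.000132; -1.49 with normexp). Of all genes above background on all 8 arrays 32.1% rose and 19.5% fell. Among these, homeobox genes rose in 7 of 56 cases (12.5%) and fell in 17 (30.4%), with a median of -0.15 (0.61 with spike-in scaling). Odorant, vomeronasal and taste receptors rose in 5 of 48 such cases (10.4%) and fell in 13 (27.1%), with a median of -0.16 (0.6 with spike-in scaling). Olfr1500 fell by 2.44 ± 0.63 (adjusted p = 0.00547; -1.49 with normexp). Solute carriers rose in 52 of 206 such cases (25.2%) and fell in 51 (24.8%), shares nearer to those of all such genes. Slc41a3, of the magnesium transporter family, rose by 1.96 ± 0.38 and Slc25a39, a mitochondrial carrier, by 1.94 ± 0.3 (adjusted p = 0.000964 and 0.000222). Histone genes rose in 9 of 39 such cases (23.1%) and fell in 7 (17.9%), also nearer to all such genes. H4c9 rose by 1.72 ± 0.17 and H1f4 fell by 1.65 ± 0.39 (adjusted p = 3.09e-05 and 0.00316).

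The 71 lists used for this account together held 2796 of the genes tested (19.9%), and 49.4% of these were called, close to the 50.3% of all genes. By their median difference 37 of the 71 lists lay above the median of all genes.

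Among genes well above background on all 8 arrays and with groups apart, the largest rises after Pttg1, Nppb, Cyfip2 and Acta1 were in genes of iron uptake, water transport and other unrelated functions. Tfrc, the transferrin receptor, stood at -0.23, -0.22, -1.5 and 0.17 and then 1.85, 2.15, 2.94 and 2.43, a rise of 2.79 ± 0.44 (adjusted p = 0.000266). Aqp8, a water channel, rose by 2.91 ± 0.29 (adjusted p = 4.11e-05), with every lactating array at least 2 units above every nulliparous array. Lrrc27, Nt5dc2 and the chemokine scavenger Ackr4 rose by 2.62 ± 0.27, 2.59 ± 0.29 and 2.52 ± 0.48 (adjusted p = 4.67e-05, 6.33e-05 and 0.00076). Normexp gave 1.56 for Nt5dc2 and 1.38 for Ackr4, and the mean of its probes 1.24 for Lrrc27.

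Some of the largest differences took a high and a low level, and both levels recurred among the knockouts of at least 1 state. Pttg1, or securin, stood at 2.2, 1.92, 1.68 and 1.84 in nulliparous and at 6.53, 5.37, 6.33 and 5.27 in lactating wild-type mice, a rise of 3.97 ± 1.1 (adjusted p = 0.00839). The knockout arrays stood at 1.74, 1.88, 6.31 and 6.43 when nulliparous and at 5.37, 1.53, 6.2 and 5.27 in lactation, so that both levels occurred in each state. Pop4, a subunit of ribonuclease P, stood at 0.28, 0.11, 0.16 and 0.17 and then 2.64, 2.68, 2.71 and 2.73 in wild-type mice. In knockouts it stood at 1.89, 0.14, 0.1 and 2.63 and then -0.06, 2.66, 0.05 and 2.78, again at both levels in each state. Its wild-type rise was 2.51 ± 0.65 (adjusted p = 0.00567). Cyfip2, of the actin-regulating WAVE complex, rose by 3.0 ± 0.62 (adjusted p = 0.00136), with nulliparous knockouts at 1.37, 1.35, 4.37 and 4.47, so at both levels, and lactating knockouts at 3.97, 4.61, 4.76 and 4.45. What sets these levels was not tested.

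Some of the largest falls showed similar cases. The kallikreins Klk1b22 and Klk1b3, near copies whose probes may share signal, fell by 3.39 ± 1.05 and 3.32 ± 0.81 (adjusted p = 0.0155 and 0.00379; -2.24 and -1.88 with normexp). In nulliparous knockouts Klk1b22 stood at -3.47, -0.67, 0.8 and -4.49 and in lactating knockouts at -0.05, -3.24, 0.06 and -3.13. Arc, a neuronal immediate early gene, stood at 2.43, 2.57, 2.45 and 2.99 and then -0.76, -1.37, -0.19 and -0.94, a fall of 3.43 ± 0.59 (adjusted p = 0.000411). It stood at 2.31, 2.71, -0.95 and 1.7 in nulliparous and at -0.83, -1.58, -0.48 and -0.42 in lactating knockouts, so that nulliparous knockout replicate 3 was at the lactating level. Elovl7, a fatty acid elongase, and Rhox3a, a homeobox gene of the reproductive tract, fell by 3.38 ± 0.95 and 3.32 ± 0.39 (adjusted p = 0.00887 and 8.08e-05; -2.02 for Elovl7 with normexp). In knockouts Elovl7 stood at -0.03, 0.16, -4.36 and -0.82 and then -0.93, -4.63, -4.38 and -4.2, at high and low levels in each state, and Rhox3a stood at 1.13, 0.68, 1.6 and -0.68 and then -1.54, -1.07, -2.53 and -1.7, with the states apart.

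A group of 5 large falls ran in parallel. The probes of Cd300lf, Rabgap1, Tdgf1, Klra1 and Scn3b, on chromosomes 11, 2, 9, 6 and 9, fell by 3.19 ± 0.38, 3.03 ± 0.37, 3.01 ± 0.34, 2.98 ± 0.37 and 2.89 ± 0.34 (adjusted p between 6.85e-05 and 8.85e-05). Across the 16 arrays their pairwise correlations were 0.994 to 0.999, as a description of probes that share arrays. After each was centred on its mean, their values on an array differed by at most 0.33. The genes have no shared function that the lists used here record, and for 3 of them the other probes moved less. With the mean of a gene's probes Cd300lf was 0.21 and not called, Rabgap1 -1.15 and Tdgf1 -1.34. What these probes measure in common was not tested.

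The genes with the smallest adjusted p values had changes of various sizes. Ces1e, a carboxylesterase, stood at -0.67, -0.63, -0.98 and -0.73 and then -2.25, -2.61, -2.37 and -2.1, a fall of 1.58 ± 0.12 (adjusted p = 8.07e-06; -1.04 with normexp). Syde2, a regulator of small GTPases, fell by 1.34 ± 0.11, and Eef1akmt4, of the lysine methyltransferases of elongation factor 1A, rose by 1.38 ± 0.13 (adjusted p = 1.15e-05 and 2.06e-05). Bfsp2, a filament protein of the eye lens, rose by 2.13 ± 0.19 (adjusted p = 1.74e-05; 1.18 with normexp). Adora3, an adenosine receptor, fell by 2.36 ± 0.22 (adjusted p = 2.06e-05; -1.28 with normexp), with the arrays at -1.5, -1.2, -1.56 and -1.04 and then -3.64, -3.86, -3.69 and -3.56.

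Set beside the Npr1-/- mice, the wild-type response had few genes that differed by test. Knockout lactation differed in the same direction for 6892 of the 7066 wild-type calls (97.5%), and 5018 were called the same way. The response itself differed between genotypes for 13 genes (0.0925% of those tested) by limma's adjusted p, and for 895 at an unadjusted p under 0.05. Adora3 was one of the 13, with -2.36 in wild-type and -0.33 in knockout mice (adjusted p of the difference = 0.0161). Adora3 lies on chromosome 3, and how near any of the 13 genes lies to Npr1 was not tested. Side by side, and with no test of each difference past the threshold, Nppb differed by 3.74 in wild-type and 2.73 in knockout mice, Acta1 by 2.99 and 3.47, and Ccn2 by 1.91 and 0.55. Hspe1 differed by 1.61 and 0.56, Mrpl15 by 1.51 and 0.63, and C1qa by 2.0 and 2.01. Nulliparous knockout replicate 4 lay near the lactating knockouts for Hspe1 and C1qa. For Hspe1 it stood at 5.59, against 4.93 to 4.98 on the other 3 nulliparous knockout arrays. The same held for Pln, Dld, Eif3i, Cd300lf and others, at 2.87 for Eif3i against 0.48 to 1.11. For some genes, such as Syde2 and Sfrp5, it lay with the nulliparous knockouts. Before scaling, its 75th percentile stood at 284 signal units, against 165 to 205 on those 3 arrays. The knockout and genotype differences include this array. In the wild-type comparison it enters no mean, but it counts in the shared spread, the filter and the choice of probe. With it left out of the fit 7494 genes were called in place of 7066. The genotype differences then numbered 20 in place of 13, and they numbered 77 with array weights and 4 with spike-in scaling.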

How the data were processed

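RNA (200 ng per array) was labelled with Cy3 and read on 1-colour Agilent arrays. Per the file headers, the authors ran Feature Extraction 10.7.3.1, and the deposited intensity of a spot is background-subtracted and spatially detrended, with no scaling between arrays. Per the labels, groups and replicates are those of the array titles.

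Spots of a probe were averaged, log2 was taken, and the 75th percentile of all probes that are no controls was subtracted from each array. The brightest named probe stood for each gene; 28026 of 55681 probes were named through RefSeq accessions. limma 3.58.1 (R 4.3.3) fitted 4 group means to 16 arrays, with 12 residual degrees of freedom and Benjamini-Hochberg adjustment over 14051 genes, and treat tested for more than 1.5-fold. The deposited log2 table of the authors was found to be the same scale less the wild-type nulliparous mean (r = 1 over 24430 probes), and served as an alternative. The alternatives were normexp (offset 50, on median spot signals), median, quantile and spike-in scaling, other filters, probe rules, blocks and single slides, and each array left out. Scaling over spots and the wild-type arrays of single slides were chosen after seeing the data. Fits were tested on simulated data. Precision is limited by 4 arrays in a group; no gene described was below background on every array of a group, and Serpina3n, Myl7 and Myc were above it on only some arrays of 1 group.

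Genes were named by these rules: a list of sentinel genes, the 12 largest rises and falls well above background on all 8 arrays with groups apart, the 10 smallest adjusted p-values, and up to 2 rises and 2 falls of each list. Of 328 such candidates and the 2 exceptions stated, 155 are described in detail, and some others are not reported here. Members and lists were chosen with earlier results of these data known. Motifs were searched with Python 3.11.15 and figures drawn with matplotlib 3.10.9.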

Additional observations from a re-analysis of the deposited data

Results flagged for a closer look

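Among the 155 genes described, 310 groups of 4 arrays were examined for a single array far from the other 3 (Dixon's ratio above its critical value for 4 arrays), and 16 had one (5.16%), against about 1 in 20 by chance. Of these, 11 were in nulliparous and 5 in lactating mice. Nulliparous replicate 3 stood low for Tfam at 1.24 (the others at 1.57 to 1.59), for Lars2 at 0.76 (1.24 to 1.27) and for Lif at -2.51 (-1.37 to -1.23). It stood high for Bnip3 at 6.57 (5.88 to 5.96) and for Per1 at 5.06 (4.54 to 4.60). Nulliparous replicate 4 stood low for Ppargc1a at 4.78 (5.29 to 5.32), Pygb at 3.13 (3.56 to 3.64) and Hba-a1 at 7.89 (8.19 to 8.25), and high for Slc41a3 at 3.44 (1.85 to 1.94). Nulliparous replicate 2 stood high for Psmd8 at 2.41 (2.24 to 2.25) and Bfsp2 at -2.08 (-2.50 to -2.48). In lactating mice, replicate 2 stood high for Pde3a at 0.36 (0.07 to 0.10), replicate 1 for Pygb at 4.89 (4.58 to 4.62) and replicate 3 for Mas1 at -1.83 (-2.39 to -2.35). Lactating replicate 3 stood low for Tcap at 8.53 (9.79 to 9.91) and lactating replicate 1 for Frzb at -1.76 (-1.53 to -1.52).

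The lactation response of Adora3 differed between genotypes, by 2.03 in knockout minus wild-type mice (adjusted p = 0.0161 by limma's interaction term). How near Adora3 lies to Npr1 was not tested.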

How the results depend on the processing

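Spike-in scaling moved most counts: 11119 called, 10864 higher and 255 lower, 5587 at 2-fold (5504 and 83), 4093 past 1.5-fold, 10855 genes with groups apart and 4 genotype differences. It turned Myh6 to 0.37, Myh7 to 0.29, Ppargc1a to 0.16, Per1 to 0.22 and Hadh to 0.03. The mean of a gene's probes turned Cd300lf to 0.21. Normexp gave 743 at 2-fold (541 higher, 202 lower) and 227 past 1.5-fold. Median centring gave 1487 lower, 1541 and 288 at 2-fold, and 850 past 1.5-fold. Without a filter 5067 were lower, 834 of them 2-fold, and 290 passed 1.5-fold.

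Slide 2 with knockouts called 88 (69 higher, 19 lower), 87 at 2-fold (68 and 19), 19 past 1.5-fold and 1 genotype difference. Slide 1 had 6 genotype differences and 10297 genes apart. From wild-type arrays alone, slide 1 called 4404 (2636 higher; 299 past 1.5-fold; 10297 apart) and slide 2 called 2205 (1586 higher, 619 lower; 45 past 1.5-fold). Genes past 1.5-fold numbered 1203 in a fit of only the 8 wild-type arrays, 1237 without nulliparous knockout replicate 4 and 1332 with array weights, with 20 genotype differences in the second case and 77 in the third. The filter on all 8 arrays left 8.

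With 1 array left out, called genes ranged from 6234 to 6660, higher from 3935 to 4210, lower from 2160 to 2725, 2-fold from 1374 to 1559 (915 to 1038 higher, 445 to 536 lower), genes past 1.5-fold from 181 (without lactating replicate 3) to 344, genes apart from 6948 to 7684, lists above the median of all genes from 37 to 41, and genotype differences from 10 to 16. Replicate numbers did not pair the mice (correlations of -0.02, 0.08, -0.04 and 0.14), and with the replicate block 7074 genes were called, 408 past 1.5-fold, with 9 genotype differences; of the genes named it ended the call of Myl7 (0.0697). Dim probes limit precision most: the median standard error was 0.24 in the dimmest group of genes and 0.11 in the brightest.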
